A study of Mus musculus with 10 samples.

Results

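Hepatocyte identity transcription factors are the DNA-binding proteins that switch on and hold the gene programme of the liver cell. The genes of 9 of them were followed here (Hnf4a, Foxa1, Foxa2, Foxa3, Cebpa, Cebpb, Onecut1, Nr5a2 and Prox1), taken as a fixed list of names, among 19938 genes that could be named by 1 symbol. This list and the gene lists below were chosen with earlier results of these data known. Shares over all genes are therefore given beside their counts for description, and no test was made over a list as a set. Each of the 9 was read by 1 feature, a set of probes along the exons of the gene. RNA came from whole livers of 10 male C57BL/6J mice. Of these, 5 had received an adenovirus encoding Phf2, a histone demethylase, and 5 one encoding GFP, a fluorescent protein. The virus was injected into the tail vein at 8 weeks of age, and the fed mice were studied 3 weeks later. All 10 mice therefore carried an adenovirus, uninjected livers are not analysed here, and the sources used here do not name the promoter that drives the inserted gene. Each liver was hybridised to 1 Affymetrix Gene ST array, and per the labels the replicates within a group are biological.

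Values are log2 levels after RMA, so that a step of 1 is a doubling of signal. Medians of the 10 arrays lay between 5.06 and 5.18. Differences are Phf2 minus GFP, tested with limma, and a gene is called changed at an adjusted p under 0.05 over all genes. Phf2 itself did not pass the test, with a log2 fold change of -0.05 (limma adjusted p = 0.751, standard error 0.08). It read 6.31, 6.27, 6.58, 6.45 and 6.37 in Phf2 mice and 6.50, 6.54, 6.53, 6.32 and 6.34 in GFP mice. No source used here states whether its feature lies within the sequence carried by the virus, and the group labels could not be checked with it. The plasmid copy of Phf2 was amplified from cDNA of a human cell line, and the origin of the adenoviral copy is not given. The features are annotated as mouse genes, and whether this feature reads the viral transcript was not tested. Per the methods, animals that failed to overexpress GFP or Phf2 were taken out of the cohort.

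These factors form a network rather than a chain. FOXA proteins open closed chromatin and prepare liver enhancers, HNF4A and LRH-1 (the product of Nr5a2) are nuclear receptors that act on genes of lipoprotein, clotting factor and bile acid metabolism, and C/EBP proteins bind as dimers to genes of glucose, urea and acute phase metabolism. HNF6, the product of Onecut1, carries a cut domain and a homeodomain and works in hepatocytes and in bile duct development. PROX1 is a homeodomain protein of hepatocytes and of lymphatic vessels that can hold back HNF4A and LRH-1. Many of them bind the promoters of each other, and most also act in other organs, such as pancreas, gut or lung.

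In Phf2 livers, 3 of the 9 genes were called lower, none was called higher, and 6 did not pass the test. Over all genes tested, 9.67% were called in either direction, 4.24% lower and 5.43% higher. Once dim features were left out, 18.1% of 11194 genes were called, 8.29% lower, and all 9 genes were among those kept. Whole liver RNA mixes cell types, so fewer cells of a type and less RNA per cell cannot be told apart in any of these values. The 3 were Onecut1, Foxa1 and Cebpa, with adjusted p of 0.0134, 0.0108 and 0.0497 from limma, so that Cebpa lay at the edge of the threshold. Hnf4a, often placed at the head of the network, lay at 9.05 in Phf2 mice and 9.15 in GFP mice. Without adjustment for the number of genes, 5 of the 9 had a p under 0.05 and all 5 were lower, against 22.2% of all genes in either direction and 10.4% lower. The log2 fold change was below 0 for 8 of the 9 and for 10914 of the 19938 genes tested. The median was -0.20 over the 9 genes and -0.0149 over all genes.

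**Figure D1:**
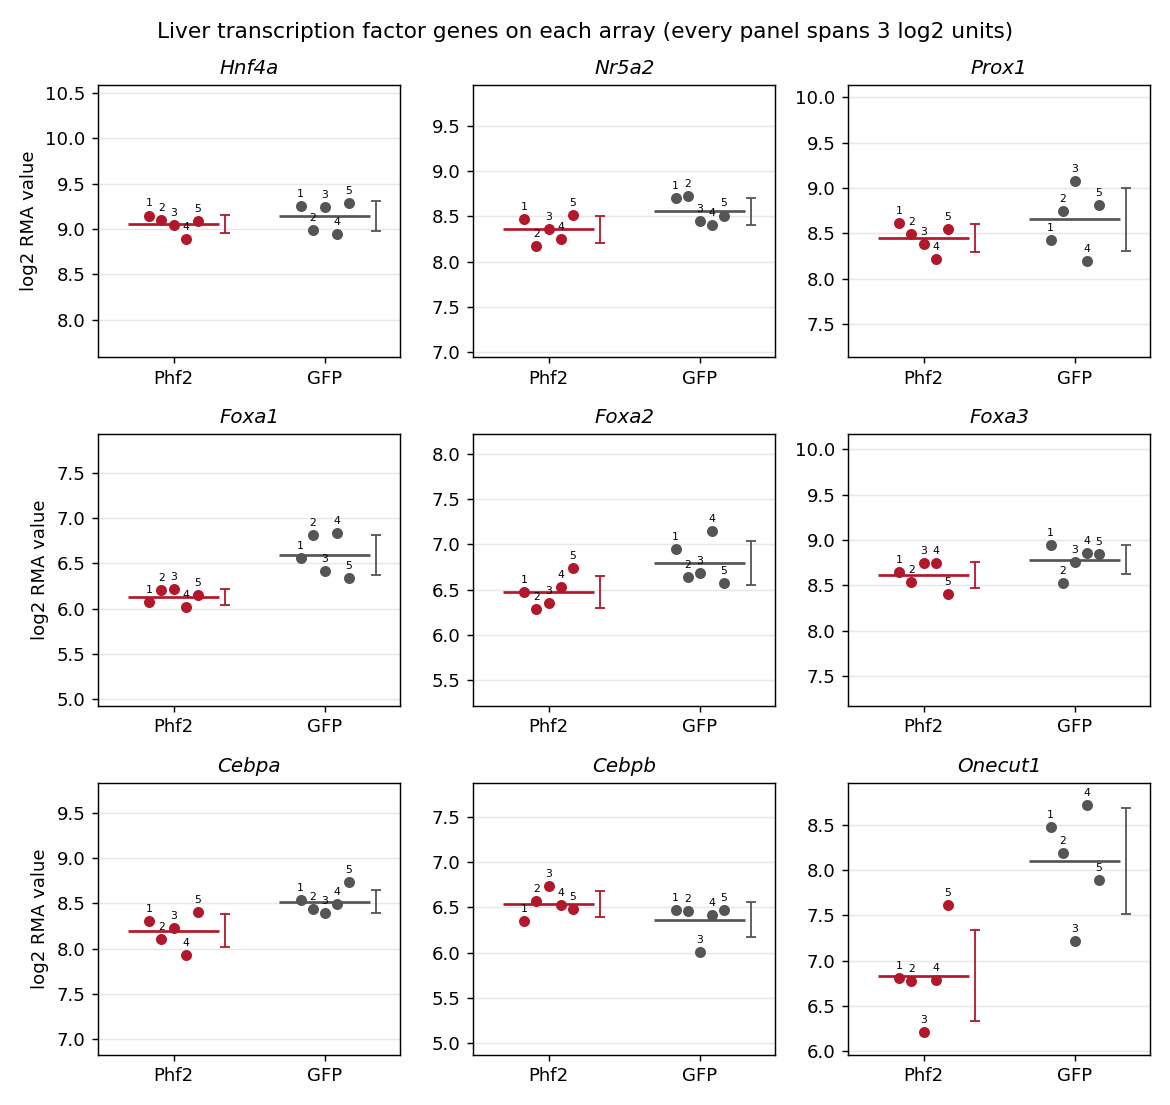
Log2 RMA value (vertical axis) of each transcription factor gene on the 5 Phf2 arrays (red, left) and the 5 GFP arrays (grey, right), with the replicate number beside each point, a line at the mean and a bar for the SD. Onecut1 shows the widest gap (means 6.84 and 8.10) and Foxa1 is the gene whose groups do not overlap, whereas Hnf4a lies at a similar level in both groups.

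The windows just before the transcription start of the 3 called genes are shown because these genes moved in 1 direction. The sequences are from RefSeq (GRCm38.p6), written 5′ to 3′ along the gene, with any match to a searched motif in capitals. Onecut1 is shown at chr9:74861671-74861920 (plus strand), Foxa1 at chr12:57546112-57546361 (minus strand) and Cebpa at chr7:35119043-35119292 (plus strand).
Onecut1: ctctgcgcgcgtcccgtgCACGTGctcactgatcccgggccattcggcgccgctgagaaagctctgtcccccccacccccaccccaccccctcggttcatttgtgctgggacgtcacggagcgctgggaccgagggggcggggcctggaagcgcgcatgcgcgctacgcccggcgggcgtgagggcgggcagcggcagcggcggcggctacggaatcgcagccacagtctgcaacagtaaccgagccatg
Foxa1: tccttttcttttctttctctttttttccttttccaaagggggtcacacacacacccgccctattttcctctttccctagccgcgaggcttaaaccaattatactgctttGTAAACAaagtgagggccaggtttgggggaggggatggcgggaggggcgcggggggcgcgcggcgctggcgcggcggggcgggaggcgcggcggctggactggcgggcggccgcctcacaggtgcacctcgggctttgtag
Cebpa: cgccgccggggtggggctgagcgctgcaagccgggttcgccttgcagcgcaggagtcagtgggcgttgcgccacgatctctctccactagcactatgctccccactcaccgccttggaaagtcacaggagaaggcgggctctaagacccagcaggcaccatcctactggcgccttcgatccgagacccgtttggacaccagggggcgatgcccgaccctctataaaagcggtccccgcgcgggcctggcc

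Promoter windows were found for all 9 genes, 14 windows in all because some genes have several starts, each reaching from 250 bases before the start to just after it. They were searched on both strands for short motifs: AAAGTCC (HNF4), TGTTTAC (forkhead), TTGCAA (C/EBP), ATCGAT (HNF6), AAGGTCA (LRH-1) and CACGTG (E-box). The Foxa1 window holds a forkhead match, read as GTAAACA from -141 to -135 relative to the start, and 3.65% of all 32851 windows hold one. The Onecut1 window holds CACGTG from -232 to -227 (7.15% of all windows), and the Cebpa window holds none of these motifs. The C/EBP letters were in 1 Nr5a2 window and 1 Prox1 window (6.23% of all windows). Matches did not overlap each other. The HNF4, HNF6 and LRH-1 letters were in none of the 14 windows. A match is a description of the sequence only, and binding was not measured in these livers.

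Onecut1 showed the largest difference of the 9. It read 6.81, 6.78, 6.21, 6.79 and 7.61 in Phf2 mice 1 to 5, against 8.47, 8.19, 7.22, 8.72 and 7.89 in GFP mice 1 to 5. The groups overlapped through Phf2 replicate 5, which was high for its group, and GFP replicate 3, which was low for its group, while the other 4 Phf2 arrays lay below all GFP arrays. Means were 6.84 ± 0.50 in Phf2 mice and 8.10 ± 0.58 in GFP mice (SD, n = 5 each). Onecut1 fell by 1.26 on the log2 scale, which is 2.40-fold (limma adjusted p = 0.0134, 95% interval -1.87 to -0.65, standard error 0.28). It was the only gene of the 9 that also passed the thresholds of the study, 1.5-fold with an unadjusted p under 0.05, read here from limma. Of all genes, 3.54% passed them in either direction and 1.16% as lower. The two-sided exact permutation test gave p = 0.0159, where 0.00794 is the smallest value that 5 against 5 arrays allow. The methods' own test, which takes each gene by itself, did not call it after adjustment over all genes (adjusted p = 0.0723). The methods describe no such adjustment. Without Phf2 replicate 5 the log2 fold change was -1.45, and without GFP replicate 3 it was -1.48.

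Onecut2, the close relative of Onecut1 that shares its cut domain and homeodomain, also fell. Its levels were 6.52, 6.41, 6.35, 6.26 and 6.46 in Phf2 mice and 7.24, 6.96, 6.97, 7.08 and 7.26 in GFP mice. No Phf2 array reached the GFP range. It fell by 0.71 on the log2 scale (limma adjusted p = 0.000173, standard error 0.08).

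Foxa1 was the only member whose groups did not overlap, against 9.08% of all genes in either direction and 4.36% with Phf2 lower. It read 6.07, 6.21, 6.22, 6.02 and 6.15 in Phf2 mice, against 6.56, 6.81, 6.42, 6.84 and 6.34 in GFP mice. The Phf2 arrays lay close together and the GFP arrays spread, with SDs of 0.09 and 0.22 (n = 5 each). Foxa1 fell by 0.46 on the log2 scale, which is 1.38-fold and so below the fold threshold of the study (limma adjusted p = 0.0108, 95% interval -0.68 to -0.25, standard error 0.10).

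Foxa2, the FOXA protein of bile acid and fasting metabolism, read 6.48, 6.29, 6.35, 6.53 and 6.74 in Phf2 mice and 6.95, 6.64, 6.68, 7.15 and 6.57 in GFP mice. Of the Phf2 arrays, 4 lay below all GFP arrays, and replicate 5 reached into the GFP range. Its log2 fold change of -0.32 (standard error 0.12, 95% interval -0.58 to -0.06) did not pass after adjustment (adjusted p = 0.123 from limma). Foxa3, the most liver-restricted of the 3 FOXA genes, read 8.65, 8.53, 8.74, 8.74 and 8.40 in Phf2 mice, against 8.94, 8.52, 8.76, 8.85 and 8.84 in GFP mice. These ranges overlapped through the low GFP replicate 2, and the log2 fold change of -0.17 (95% interval -0.37 to 0.03) had an adjusted p of 0.312 from limma.

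**Figure D2:**
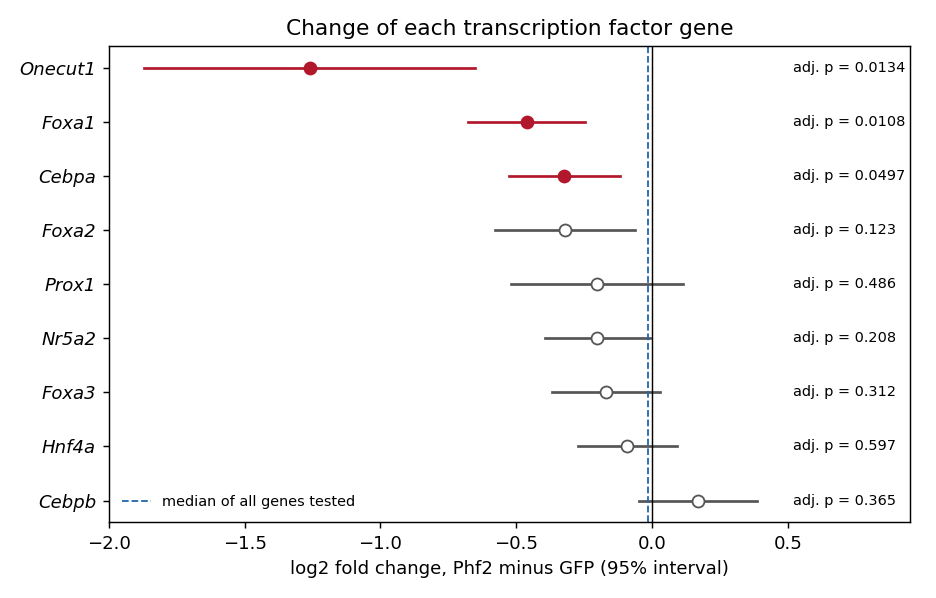
Log2 fold change (Phf2 minus GFP, horizontal axis) with its 95% interval from limma for each transcription factor gene, filled red where the adjusted p is under 0.05. The intervals of Onecut1, Foxa1, Cebpa, Foxa2 and Nr5a2 lie below 0, although Foxa2 and Nr5a2 did not pass after adjustment, and the dashed line marks the median of all genes at -0.0149.

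Whether relatives changed unequally was tested on the difference between them within each array, for 4 pairs. Within the FOXA family no pair passed, so an unequal change of Foxa1, Foxa2 and Foxa3 was not shown. Foxa1 minus Foxa3 shifted by -0.29 (95% interval -0.68 to 0.10, two-sided exact permutation p = 0.135, adjusted p = 0.270 over the 4 pairs). Foxa1 minus Foxa2 shifted by -0.14 (95% interval -0.47 to 0.18, adjusted exact permutation p = 0.365), and Foxa2 minus Foxa3 by -0.15 (95% interval -0.51 to 0.21, adjusted exact permutation p = 0.365).

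The C/EBP pair passed this test over all 10 arrays. C/EBPα keeps hepatocytes differentiated and out of the cell cycle, and C/EBPβ works in the acute phase response and in regeneration. Cebpa read 8.30, 8.11, 8.23, 7.93 and 8.40 in Phf2 mice, against 8.54, 8.44, 8.39, 8.49 and 8.73 in GFP mice. The ranges met between Phf2 replicate 5 at 8.40 and GFP replicate 3 at 8.39. It fell by 0.32 on the log2 scale (limma adjusted p = 0.0497, 95% interval -0.53 to -0.12, standard error 0.09). Cebpb read 6.35, 6.57, 6.74, 6.53 and 6.48 in Phf2 mice and 6.47, 6.46, 6.01, 6.41 and 6.47 in GFP mice. Here 4 Phf2 arrays lay above all GFP arrays, and the log2 fold change of 0.17 (95% interval -0.05 to 0.39) did not pass (adjusted p = 0.365 from limma).

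The log2 level of Cebpb minus that of Cebpa was -1.95, -1.54, -1.49, -1.40 and -1.92 in Phf2 mice, against -2.07, -1.98, -2.38, -2.08 and -2.26 in GFP mice. All 5 Phf2 arrays lay above all 5 GFP arrays. The 2 levels come from different probes, so only the shift between groups can be read, and it was 0.49 (95% interval 0.18 to 0.80). The two-sided exact permutation test gave p = 0.00794, the smallest it allows, and 0.0317 after adjustment over the 4 pairs. With the replicate number as a block the adjusted p was 0.250, since the paired test of 5 pairs cannot go below 0.0625. The call was lost without any 1 of the 5 GFP arrays (adjusted exact permutation p between 0.0952 and 0.127, with shifts of 0.44 to 0.54). The groups still did not overlap in these tests. With unequal group sizes, some other assignments of the arrays gave a difference at least as large, which raised the p.

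**Figure D3:**
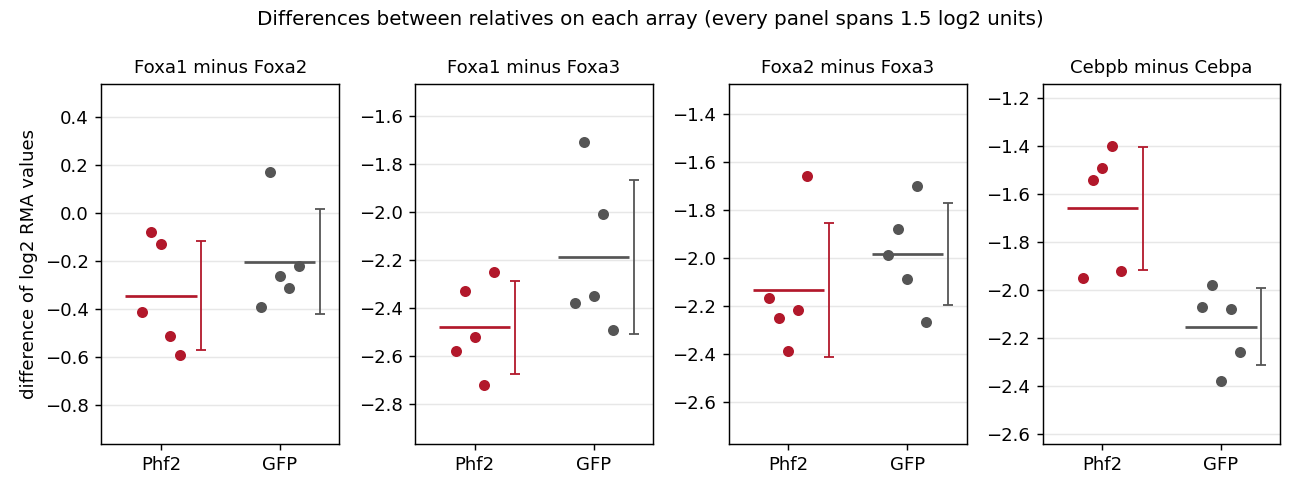
Difference between the log2 RMA values of 2 relatives on the same array (vertical axis) for the 5 Phf2 arrays (red, left) and the 5 GFP arrays (grey, right), with a line at the mean and a bar for the SD. Cebpb minus Cebpa averages -1.66 in Phf2 mice and -2.15 in GFP mice with no overlap, whereas the FOXA pairs overlap.

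The nuclear receptors and Prox1 did not pass the test. Hnf4a read 9.15, 9.10, 9.04, 8.89 and 9.09 in Phf2 mice, against 9.26, 8.99, 9.24, 8.95 and 9.29 in GFP mice. The groups overlapped over most of their range. Its log2 fold change of -0.09 had a standard error of 0.08 and a 95% interval of -0.27 to 0.09 (adjusted p = 0.597 from limma). This feature does not tell which of the Hnf4a starts was used.

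Nr5a2 read 8.47, 8.17, 8.36, 8.25 and 8.52 in Phf2 mice and 8.70, 8.73, 8.45, 8.40 and 8.51 in GFP mice. Its log2 fold change of -0.20 (95% interval -0.39 to -0.01) had an unadjusted p of 0.0433 and an adjusted p of 0.208 from limma. Prox1 read 8.61, 8.49, 8.38, 8.22 and 8.55 in Phf2 mice, inside the wider GFP range of 8.42, 8.75, 9.08, 8.19 and 8.81. Its log2 fold change of -0.20 (95% interval -0.52 to 0.12) had an adjusted p of 0.486 from limma, and the value was -0.09 without GFP replicate 3 and -0.32 without GFP replicate 4. The SD of Prox1 was 0.16 in Phf2 mice and 0.35 in GFP mice (n = 5 each).

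Read by array, 8 of the 9 genes lay below their GFP mean on each of the 5 Phf2 arrays, but not the same 8. On Phf2 replicates 2 to 5 the exception was Cebpb. On replicate 1 it was Hnf4a (9.15 against a GFP mean of 9.1452), and Cebpb lay just below (6.35 against 6.3652). The number that lay below all GFP arrays was 4, 5, 5, 6 and 2 on Phf2 replicates 1 to 5, so that replicate 5 was the nearest to the GFP livers. Among the GFP arrays, replicate 3 had 7 of the 9 below the mean of its own group, and the other GFP arrays had 2 to 4.

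The 3 genes most like each called gene were those with the highest Pearson correlation over the 10 arrays, a measure that includes the difference between the groups. For Onecut1 these were Pyurf (r = 0.956), the chloride channel gene Clcn2 (r = 0.953) and Mpv17l (r = 0.948), and the correlations within groups were 0.878, 0.869 and 0.853. Mpv17l fell by 0.91 on the log2 scale (limma adjusted p = 0.00462, standard error 0.17), and its level, like that of Onecut1, was low on GFP replicate 3. For Foxa1 they were the intraflagellar transport gene Ift46 (r = 0.959), Cobll1 (r = 0.951) and the cytosolic aconitase Aco1 (r = 0.944). For Cebpa they were Adtrp (r = 0.977), the glutathione peroxidase Gpx1 (r = 0.960) and Auh, an enzyme of leucine breakdown (r = 0.956). Of these, Adtrp was called lower (adjusted p = 0.0158 from limma), whereas Gpx1 and Auh did not pass (adjusted p = 0.267 and 0.0648 from limma). All of these genes were picked as the highest of many correlations over 10 arrays, so a shared control was not shown.

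Other liver-enriched transcription factors were read from a list, of which 26 were analysed. Of the 26, 4 were lower, 1 was higher and 21 did not pass, with a median log2 fold change of -0.0951. Over all genes 9.67% were called, and 18.1% once dim features were left out. These shares are also the background for the partners, antagonists and cell type markers below. Besides Onecut2, the lower genes were Rxra, Nr1i3 and Creb3l3. Rxra, the partner with which many liver nuclear receptors bind DNA, read 7.92, 7.83, 7.85, 7.84 and 7.90 in Phf2 mice, against 8.53, 8.37, 8.56, 8.43 and 8.61 in GFP mice. The groups were far apart relative to their spread, and Rxra fell by 0.63 on the log2 scale (limma adjusted p = 5.69e-05, standard error 0.06).

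Nr1i3 encodes CAR, the xenobiotic receptor, and Creb3l3 encodes CREBH, a factor of lipid and iron metabolism. Both were named after their values were seen, with falls of 0.50 (adjusted p = 0.0120 from limma) and 0.30 (adjusted p = 0.0165 from limma). The higher gene was Cebpg, a C/EBP relative without its own activation domain, at 9.09 ± 0.18 in Phf2 mice and 8.69 ± 0.13 in GFP mice (SD, n = 5 each). It rose by 0.39 (limma adjusted p = 0.0183, standard error 0.09) with no overlap between the groups. This call was lost without Phf2 replicate 4 (adjusted p = 0.0537 from limma).

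Of 16 partners and antagonists of these factors, 14 were analysed, and 13 of them did not pass the test. The remaining gene, Ncoa1, encodes a coactivator of nuclear receptors. It read 7.02, 7.14, 7.35, 7.33 and 6.93 in Phf2 mice, against 6.36, 6.67, 6.66, 6.42 and 6.60 in GFP mice, and rose by 0.61 (limma adjusted p = 0.00179, standard error 0.10).

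**Figure D4:**
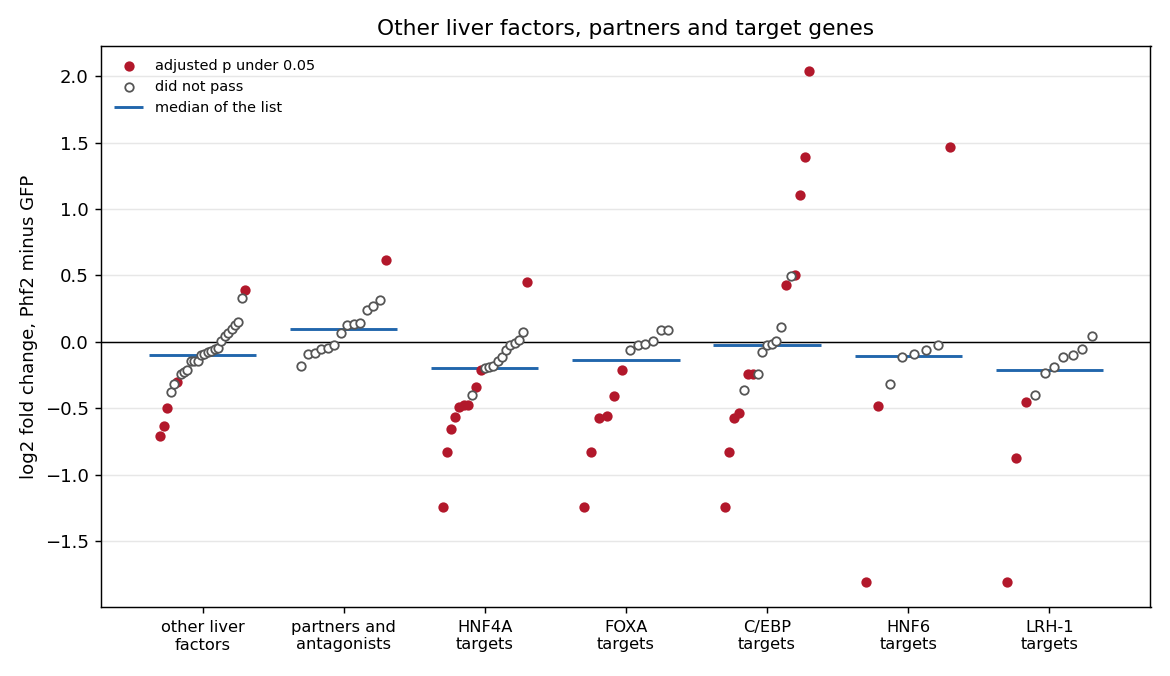
Each point is a gene of 1 of 7 lists (other liver factors, partners, target genes), placed by its log2 fold change of Phf2 over GFP on the vertical axis and filled red where the adjusted p is under 0.05, with a blue line at the list median. Medians run from -0.21 for the LRH-1 targets to 0.0954 for the partners and antagonists.

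Target genes of the factors were read from 5 further lists, which share members (Pck1 and Tat, for example, are in the HNF4A, FOXA and C/EBP lists). The 9.67% of all genes called, and the 18.1% once dim features were left out, are the background for each count. Of 21 HNF4A targets analysed, 9 were lower, 1 was higher and 11 did not pass, with a median of -0.20. Of 12 FOXA targets analysed, 6 were lower and 6 did not pass, with a median of -0.14, and 3 were called without GFP replicate 1, 2 or 4 or Phf2 replicate 3 or 4. Pck1, the enzyme that commits carbon to gluconeogenesis, read 9.25, 8.45, 8.31, 7.95 and 8.14 in Phf2 mice and 9.74, 9.85, 9.56, 9.71 and 9.46 in GFP mice. The groups did not overlap, and Pck1 fell by 1.24 (limma adjusted p = 0.00168, standard error 0.20).

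Tat, a tyrosine aminotransferase that rises late in liver development, read 12.03, 11.23, 10.68, 10.75 and 11.88 in Phf2 mice, against 12.08, 12.17, 12.15, 12.13 and 12.18 in GFP mice. Phf2 replicates 1 and 5 lay close to the GFP level and replicates 2, 3 and 4 lay well below it. It fell by 0.83 (limma adjusted p = 0.0407, standard error 0.23), a call lost by leaving out any GFP array or Phf2 replicate 2, 3 or 4 (adjusted p between 0.0686 and 0.101 from limma). In the HNF4A list the higher gene was Mttp, which loads lipid onto lipoproteins, with means of 10.12 ± 0.05 in Phf2 mice and 9.66 ± 0.13 in GFP mice (SD, n = 5 each). Both Ttr and Alb were named after their values were seen. Ttr, a plasma carrier protein and classic target of both HNF4A and FOXA, had a log2 fold change of -0.06 (limma adjusted p = 0.651, standard error 0.07), and Alb, albumin, one of -0.01 (limma adjusted p = 0.940, standard error 0.07).

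The 19 C/EBP targets moved in both directions, with 5 higher, 6 lower and 8 that did not pass, and a median of -0.02. The higher genes with the largest rise were Lcn2, an iron-binding acute phase protein, and the acute phase glycoprotein gene Orm2. Lcn2 read 7.41, 8.42, 8.61, 9.20 and 7.70 in Phf2 mice, against 5.55, 5.91, 7.30, 5.89 and 6.51 in GFP mice, and rose by 2.04 (limma adjusted p = 0.00370, standard error 0.36). Orm2 averaged 9.55 ± 0.13 in Phf2 mice and 8.16 ± 0.60 in GFP mice (SD, n = 5 each), a rise by 1.39 (adjusted p = 0.00217 from limma). The lower genes were metabolic and acute phase genes alike, since Crp, Fgb, Orm1 and Cps1, named after their values were seen, fell beside Pck1 and Tat. The number called ran from 6 to 13 when single arrays were left out, and the median lay above 0 after a further quantile normalization (0.0008) and without GFP replicate 5 (0.0115).

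Of 8 HNF6 targets analysed, 2 were lower, 1 was higher and 5 did not pass. Foxa2 and Hnf4a are both in this list and among the 5. The lower genes were Cyp7a1, the rate-limiting enzyme of bile acid synthesis, and Cdh1, which encodes E-cadherin. Cyp7a1 read 9.12, 7.58, 7.58, 7.56 and 9.46 in Phf2 mice, against 10.10, 10.14, 9.94, 9.98 and 10.17 in GFP mice. Phf2 replicates 1 and 5 were again the nearest to the GFP level, and Cyp7a1 fell by 1.81 (limma adjusted p = 0.00580, standard error 0.35). Cdh1 fell by 0.49 (limma adjusted p = 0.00428, standard error 0.09), and Cyp2c38, a cytochrome P450, rose by 1.47 (limma adjusted p = 9.43e-05, standard error 0.15).

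Cyp7a1 is also among the 10 LRH-1 targets analysed, of which 3 were lower and 7 did not pass, with a median of -0.21 (-0.34 without GFP replicate 3). Among the 7 is Cel, named after its value was seen, which is also a pancreatic acinar marker below. Its SD was 2.63 in Phf2 mice and 2.56 in GFP mice, with a standard error of 1.32. Apom, an apolipoprotein of HDL, read 9.18, 8.52, 8.76, 8.69 and 9.15 in Phf2 mice and 9.98, 9.85, 9.63, 9.50 and 9.69 in GFP mice, with no overlap. It fell by 0.87 (limma adjusted p = 0.00149, standard error 0.13). The third was the HDL receptor gene Scarb1, with a fall of 0.45 (adjusted p = 0.00330 from limma), named after its value was seen.

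Levels of cell type markers were read beside these results. Of 9 hepatocyte markers analysed, 4 were lower (Tat, Cps1, Fgb and Apoa1) and 5 did not pass. Their mean level was 11.84 to 12.17 on the Phf2 arrays and 12.19 to 12.27 on the GFP arrays. Phf2 replicates 1 and 5 had the highest means of their group (12.11 and 12.17). Of 7 bile duct markers none passed by limma, and their mean was 5.07 to 5.55 on the Phf2 arrays and 4.95 to 5.75 on the GFP arrays. GFP replicate 4 had the highest bile duct mean and also the highest Foxa1 (6.84), Foxa2 (7.15) and Onecut1 (8.72). Without it Foxa1 fell by 0.40 (adjusted p = 0.0251 from limma), and the log2 fold change of Onecut1 was -1.10 (adjusted p = 0.0339 from limma). Phf2 replicate 2 had the highest bile duct mean of its group (5.55), with its lowest Foxa2 (6.29) and Onecut1 at 6.78.

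Pancreatic acinar markers, whose source tissue also expresses Nr5a2, varied widely within both groups, from 5.57 to 9.66 on the Phf2 arrays and from 5.75 to 11.12 on the GFP arrays, with none of 14 called by limma. With their mean as a covariate, Onecut1 and Foxa1 passed (adjusted p = 0.0159 and 0.0143 from limma). Cebpa did not (adjusted p = 0.0546 from limma), and Nr5a2 had an adjusted p of 0.232 from limma. Tat and Cyp7a1 passed in the same fit (adjusted p = 0.0198 and 0.00228 from limma). Both were nearest to the GFP level on Phf2 replicates 1 and 5. Those 2 arrays had the lowest acinar means of their group, 5.57 and 5.74, against 9.66, 9.04 and 7.93 on replicates 2 to 4. On the GFP arrays Tat read 12.08 to 12.18 and Cyp7a1 9.94 to 10.17. GFP replicate 1, which had the highest acinar mean (11.12), read 12.08 for Tat and 10.10 for Cyp7a1. Whether acinar tissue bears on the spread among the Phf2 arrays was not tested. Of 5 lymphatic endothelial markers, read beside Prox1, 1 was higher (Lyve1, with a log2 fold change of 0.51 and adjusted p = 0.0211 from limma). The 4 that did not pass were Pdpn (0.23), Flt4 (0.19), Mmrn1 (0.0012) and Reln (-0.23), so a shared rise was not shown. The mean of the 5 was 5.51 to 5.88 on the Phf2 arrays and 5.37 to 5.68 on the GFP arrays. Of 12 macrophage and neutrophil markers, bearing on Cebpb, the test called 2 higher and 4 lower, and 6 did not pass. The lower genes were Cd163 (log2 fold change -1.89, adjusted p = 3.82e-09 from limma), Timd4 (-1.59), Clec4f (-0.54) and Marco (-0.37). The higher genes were Ccr2 (0.69) and Lyz2 (0.64). The mean of all 12, which pools these opposite changes, was 6.28 to 6.75 on the Phf2 arrays and 6.44 to 6.98 on the GFP arrays. The 6.98 was GFP replicate 3, on which Cebpb was lowest. The part of the hepatocyte, bile duct, lymphatic and myeloid markers in the values of the transcription factors was not tested.

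When each array was left out in turn, Foxa1 and Onecut1 stayed below an adjusted p of 0.05 in all 10 fits, with highest values of 0.0339 and 0.0368 from limma. The Cebpa call was lost in 8 of the 10, kept only without GFP replicate 3 (adjusted p = 0.0478) or Phf2 replicate 5 (adjusted p = 0.0248). Its log2 fold change was between -0.37 and -0.26 in these fits.

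**Figure D5:**
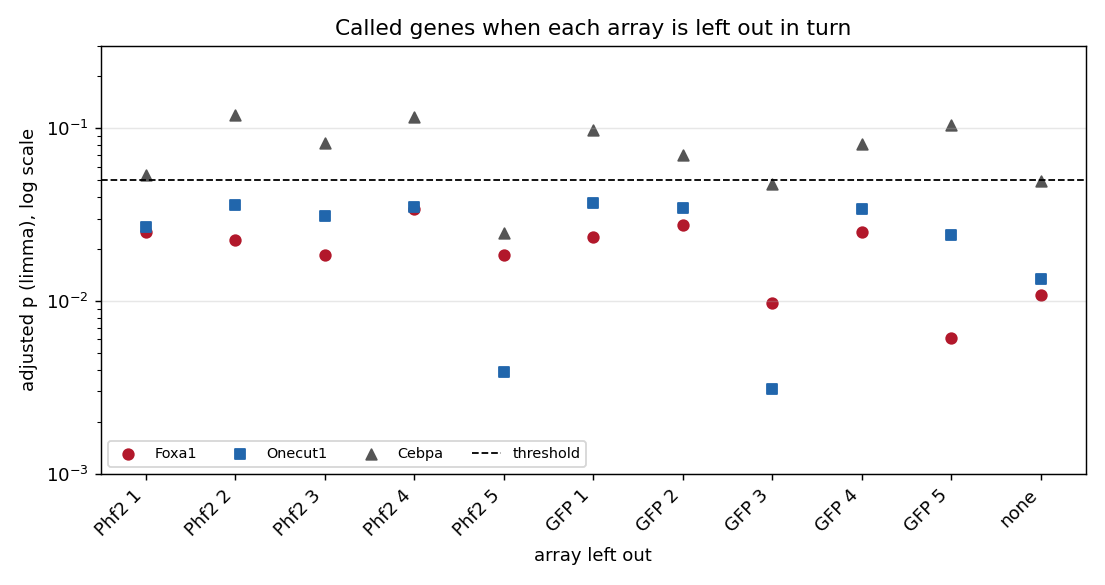
Adjusted p from limma (vertical axis, log scale) of Foxa1, Onecut1 and Cebpa with each array left out and, at the right, with none left out. Foxa1 and Onecut1 stay below the dashed threshold of 0.05 throughout, and Cebpa lies above it in 8 of the 10 fits.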

How the data were processed

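Liver RNA of 5 Phf2 and 5 GFP mice was measured, 1 array per mouse. The log2 values of 35556 features that the authors deposited were made with RMA (Bioconductor), and Partek served for their statistics. No version or genome build is stated in the sources used here. The methods name a human array, whereas the features are annotated as mouse genes.

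Features with 1 symbol (21789) were kept, those with several (1621) or none (12146) left out, and 21698 matched RefSeq (GRCm38.p6) gene numbers, used for names. The feature with the highest mean stood for its gene. Groups, from the sample labels, entered a linear model in R 4.3.3 with limma 3.58.1 (lmFit, eBayes, no covariate, Benjamini-Hochberg over 19938 genes). Single values were compared by exact permutation tests (Python 3.11.15). The pipeline was tested on simulated data.

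The members and lists were chosen with earlier results of these data known. Named genes are the 9 members, Phf2, up to 2 called genes of each list in each direction with the largest change (or 2 with the smallest p), and the 3 genes most correlated with each called member among genes with a mean above the median, with cell type markers where given beside a member. Others are marked as named after their values were seen. Alternatives tried were array weights, an intensity trend, the methods' t-test, a dim filter, quantile normalization, median centring, all features, the mean of features, the replicate number as a block, a pancreatic covariate, the thresholds of the study and each array left out. Arrays correlated at 0.9783 to 0.9932, and none were identical. The number of arrays limits the precision. Some list genes and 1 searched motif are not reported here.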

Additional observations from a re-analysis of the deposited data

Results flagged for a closer look

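Among the 32 named genes, 64 groups of 5 arrays were examined for an array far from the others of its group, and 3 were marked, all on GFP replicate 3. Chance marks about 1 in 20 such groups. Cebpb read 6.01 on this array, against 6.41 to 6.47 on the other GFP arrays, and without it the log2 fold change of Cebpb was 0.08. Pyurf read 6.03 there, against 6.23 to 6.26, and Mpv17l 6.35, against 7.03 to 7.27. Pyurf and Mpv17l were picked for their likeness to Onecut1, whose own GFP replicate 3 was its lowest GFP value at 7.22, so these marks are not independent of it.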

How the results depend on the processing

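Of the 9 transcription factor genes, none changed the sign of its difference under the 21 alternatives tried. The count of 3 called genes became 1 by the methods' t-test (Foxa1, where Onecut1 had an adjusted p of 0.0723 and Cebpa 0.109) and 1 at the thresholds of the study (Onecut1), and ran from 2 to 3 when single arrays were left out. Cebpa also did not pass over all features (adjusted p = 0.0940 from limma). Of all genes, 1929 were called, 706 at the thresholds of the study and 1309 to 2132 without single arrays. The 1083 higher and 846 lower genes became 829 and 959 with each array centred on its median, and 1024 and 1066 after quantile normalization, with the 3 members called in both.

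At the thresholds of the study 2 other liver factors, 3 HNF4A, 2 FOXA and 5 C/EBP targets passed. By the t-test 3 other liver factors and 7 C/EBP targets passed, over all features 6 C/EBP targets, and without dim features 2 partners. Without single arrays the counts ran from 4 to 6 for other liver factors, 1 to 2 for partners (2 without GFP replicate 1 or 3), 7 to 10 for HNF4A, 3 to 6 for FOXA (3 without GFP replicate 1, 2 or 4 or Phf2 replicate 3 or 4) and 6 to 13 for C/EBP targets (6 or 7 without GFP replicate 3, 4 or 5 or Phf2 replicate 2, 3 or 4). They stayed at 3 for HNF6 and 3 for LRH-1 targets.

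A pairing of the samples by replicate number was not seen, with correlations of deviations of -0.381 to 0.016 over the 5 same-numbered pairs. The highest correlation was 0.56, between Phf2 replicate 2 and GFP replicate 1. These values cannot tell whether mice of the same number were handled together. With the number as a block, 7 C/EBP targets were called, all 3 members passed, and Cebpb minus Cebpa kept its shift of 0.49 with an adjusted exact permutation p of 0.250. Without single arrays this shift ran from 0.43 to 0.57 and its adjusted exact permutation p from 0.0317 to 0.127, above 0.05 without any one GFP array, although the groups still did not overlap.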
